A study of Mus musculus with 104 samples.

Results

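The 3 regions described here, around Adgrb3 (chr1:25000001-26000000), Lpp (chr16:24000001-25500000) and Gpc6 (chr14:117000001-118500000) in the mm9 build, were chosen by their gain of DNA break junctions under aphidicolin in both embryonic stem cells and neural progenitors of this series. They held 1723 of the 531098 junctions that lay more than 5 Mb from the bait break of their own pool (462 at Adgrb3, 463 at Lpp and 798 at Gpc6). The junctions came from high-throughput genome-wide translocation sequencing (HTGTS), which reads, from a primer beside a bait break made on purpose, the places elsewhere in the genome that the bait end was joined to. Embryonic stem cells (ESC) from 2 mouse lines, strain C57BL6/129SVE, were used as such or after differentiation in culture into neural progenitors (NPC). All groups, controls included, were Xrcc4-/- p53-/-, so a core factor of classical end joining and the p53 tumour suppressor were missing throughout. Cells received aphidicolin (APH) or its control DMSO. The bait break was on chromosome 7, 12 or 15, and each of the 24 pools combined the experiments (104 in all) of one cell type, line, bait and treatment, which gives 6 pools in each of the 4 conditions. The study asked whether both cell types form recurrent break clusters in culture when replication is slowed.

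Aphidicolin inhibits the replicative DNA polymerases and slows replication forks, and under such stress breaks are known to gather in long, late replicating genes. Adgrb3 (older name Bai3) encodes an adhesion G protein-coupled receptor of neurons that binds C1q-like proteins at synapses. Lpp encodes a LIM domain protein of focal adhesions and cell contacts, and Gpc6 encodes glypican 6, a heparan sulfate proteoglycan of the cell surface. Each of these genes is long. No annotation of the mm9 build was used here, so junctions are placed by window and not by exon or intron, and the files hold DNA junctions only, so the cell types were not checked against expressed markers.

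Single junction reads show what was counted. For each window, an ESC read under APH is printed for a minus-strand junction on the side of the window centre nearer the chromosome start (the start side) and for a plus-strand junction on the other side (the end side), and an NPC read under APH for a minus-strand junction on the start side. These were the reads nearest the median position of such junctions whose bait and prey alignments overlapped by 2 bases or more. The first 28 bases are bait sequence, capitals mark the bases that align to both bait and prey (microhomology), and the last 28 bases are prey.
Adgrb3 ESC minus, line 2 bait 12, chr1:25304227: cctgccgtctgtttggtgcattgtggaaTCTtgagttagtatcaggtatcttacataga
Adgrb3 ESC plus, line 2 bait 12, chr1:25663524: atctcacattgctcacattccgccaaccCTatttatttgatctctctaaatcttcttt
Adgrb3 NPC minus, line 1 bait 7, chr1:25304392: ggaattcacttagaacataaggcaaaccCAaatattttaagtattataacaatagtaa
Lpp ESC minus, line 1 bait 15, chr16:24502322: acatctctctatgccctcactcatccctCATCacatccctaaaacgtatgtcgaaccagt
Lpp ESC plus, line 2 bait 7, chr16:24983629: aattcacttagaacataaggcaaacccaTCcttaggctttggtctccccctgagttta
Lpp NPC minus, line 2 bait 7, chr16:24494634: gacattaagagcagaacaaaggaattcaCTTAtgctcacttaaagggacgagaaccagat
Gpc6 ESC minus, line 1 bait 15, chr14:117524697: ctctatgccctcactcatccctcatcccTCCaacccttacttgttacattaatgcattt
Gpc6 ESC plus, line 1 bait 7, chr14:118143133: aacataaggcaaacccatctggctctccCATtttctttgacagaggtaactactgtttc
Gpc6 NPC minus, line 1 bait 15, chr14:117531548: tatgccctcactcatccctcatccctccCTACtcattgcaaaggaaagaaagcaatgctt
A plus-strand junction keeps the DNA on the higher-coordinate side of the break, and a minus-strand junction keeps the DNA on the lower-coordinate side.

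ESC pools held 4713 to 12945 junctions beyond 5 Mb and NPC pools 12526 to 88587, so a window share rested on 0 to 27 junctions in an ESC pool and on 1 to 160 in an NPC pool. Pools labelled NPC line 2 bait 15 stood apart. The same molecules, with equal junction, strand, bait end and far end of the prey alignment, occurred in the NPC bait 15 pools of both lines. Line 1 APH and line 2 APH shared 26131 molecules off the bait chromosome, 34.2% of the first and 45.4% of the second. Line 1 APH and line 2 DMSO shared 18572, or 24.3% and 36.7%. Line 1 DMSO shared 6641 with line 2 APH (20.9% and 11.5%) and 10978 with line 2 DMSO (34.5% and 21.7%). Among the other 80 pairs of pools with the same bait, the median was 0.297% of the smaller pool and the highest 10.2%, and 4 pairs, each of an ESC DMSO and an NPC bait 15 pool, were above 5%. By single experiment, line 2 DMSO experiment A shared 8413 of its 14080 molecules with line 1 APH experiment A, and experiment D shared 10050 of 18896 with line 1 APH experiment C. Line 1 DMSO experiments A and D shared 52.7% and 55.5% of their molecules with the line 2 APH pool, and B and C shared 52.0% and 58.0% with line 2 DMSO experiments B and C. The sharing across treatments therefore touches both treatments of both lines. In the windows, 56 of 399 Adgrb3 molecules, 61 of 389 Lpp molecules and 121 of 656 Gpc6 molecules occurred in more than 1 pool. Outside the NPC bait 15 pools those counts were 2, 1 and 4. Most of the fitted differences, tests over units and pooled NPC counts of the windows are therefore given with and without the 2 NPC pools of line 2 bait 15. The correlations between bins include both pools. The medians over single experiments include only the DMSO pool, as the APH pool had no usable experiment letters. Leaving the 2 pools out does not settle which label a shared molecule belongs to, so the NPC line 1 bait 15 values carry the same limit.

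Because the windows were chosen on the difference between APH and DMSO, the levels under both are a description with no test. At Adgrb3 the mean share was higher under APH in both cell types, with wide differences between pairs of pools. In ESC the Adgrb3 share ran from 0.0176% (median 0.0372%) to 0.0637% over the 6 DMSO pools. Under APH it ran from 0.0654% (median 0.0908%) to 0.284%. The ratio of the ESC means was 3.45. The lowest APH pool and the highest DMSO pool, both line 1 bait 7, were close, with 4 of 6114 and 3 of 4713 junctions. By pair of line and bait, the ESC ratio ran from 1.03 (line 1 bait 7) and 1.07 (line 1 bait 15) to 12.3 (line 2 bait 12). Line 2 bait 7 had 5.95, on 9 APH junctions and 1 DMSO junction, and line 1 bait 12 had 5.62. In NPC the DMSO pools lay between 0.00798% and 0.101% with a median of 0.0298%, and the APH pools between 0.0669% and 0.153% with a median of 0.105%. The NPC ratio by pair ran from 0.817 (line 2 bait 15, the 1 pair that was lower under APH) to 19.2 (line 2 bait 12). The highest DMSO pool was NPC line 2 bait 15, with 59 junctions. Without the 2 pools of that unit the NPC DMSO mean was 0.0254% ± 0.0111 (SD, n = 5) in place of 0.0379% ± 0.0323 (n = 6), and the ratio of APH to DMSO means was 4.55 in place of 2.90. On the scale of the edgeR fit, Adgrb3 differed between APH and DMSO by 1.84 ± 0.50 (log2, SE) in ESC and 1.47 ± 0.37 in NPC, or 2.05 ± 0.38 in NPC without those 2 pools.

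Of the 3 windows, Lpp had the smallest difference between APH and DMSO in NPC. In ESC its share ran from 0% (median 0.0293%) to 0.0489% under DMSO and from 0.0467% (median 0.0885%) to 0.212% under APH, higher under APH in 6 of 6 line and bait pairs. The 0 was line 2 bait 7, where 0 of 5670 junctions allows a share of up to 0.0529% (3 counts of the pool's junctions). In NPC the DMSO pools held 0.0618% (median 0.0696%) to 0.0943% and the APH pools 0.0829% (median 0.102%) to 0.141%. All 6 NPC pairs were higher under APH, by 1.17 to 1.96 times, and the groups overlapped. The fitted difference was 2.05 ± 0.55 in ESC and 0.50 ± 0.34 in NPC, or 0.48 ± 0.32 in NPC without the 2 pools of line 2 bait 15 (log2, SE). The APH pools of both cells had nearly equal means, 0.107% ± 0.0604 in ESC and 0.106% ± 0.0196 in NPC (SD, n = 6 each). The DMSO means were 0.0729% ± 0.0118 in NPC and 0.0276% ± 0.0186 in ESC. Each ESC DMSO pool held only 0 to 3 Lpp junctions. This contrast within DMSO was singled out after its values were seen and was not tested.

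Gpc6 had the most junctions of the 3 windows. In ESC its share ran from 0% (median 0.0507%) to 0.0882% under DMSO and from 0.0583% (median 0.188%) to 0.26% under APH. The 0 was line 2 bait 15, where 0 of 6141 junctions allows up to 0.0489% by the same limit of 3 counts. One ESC pair, line 2 bait 7, was lower under APH, 0.0583% against 0.0882% on 5 junctions each. In NPC the DMSO pools held 0.0471% (median 0.0736%) to 0.188% and the APH pools 0.141% (median 0.189%) to 0.245%. The highest DMSO pool was again NPC line 2 bait 15, the only NPC pair that was lower under APH. The ratio of NPC means was 1.92, or 2.46 without those 2 pools. The fitted difference was 1.93 ± 0.49 in ESC and 1.04 ± 0.36 in NPC, or 1.42 ± 0.34 without them (log2, SE). Such limits, and intervals on single pools, cover counting error only. The 5 junctions of Gpc6 in ESC line 2 bait 7 DMSO give a 95% exact Clopper-Pearson interval of 0.0286% to 0.206%.

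**Figure D1:**
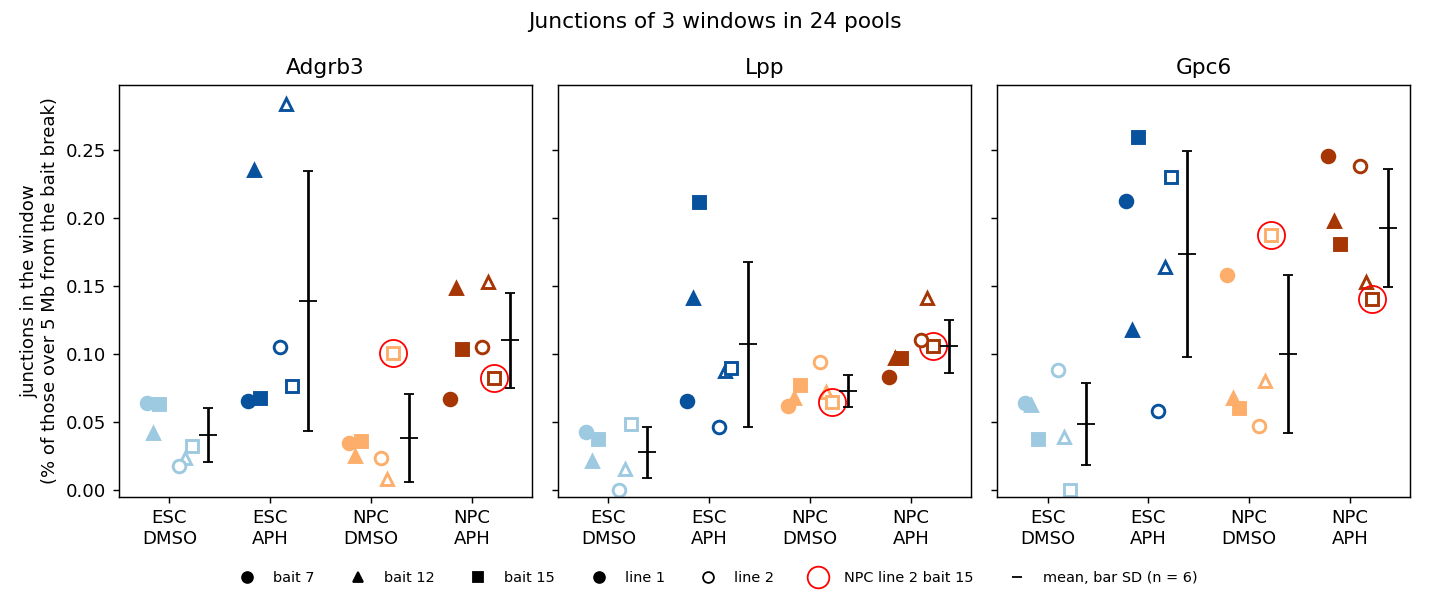
Share of junctions in each window (y axis, percent of junctions more than 5 Mb from the own bait break) in the 24 pools, by cell type and treatment (x axis), with marker shape for the bait and fill for the line; black bars are the mean and SD of 6 pools. At Adgrb3 both bait 12 pools (0.236% and 0.284%) are at the top of the ESC APH pools. The ringed NPC line 2 bait 15 DMSO pool is the highest NPC DMSO pool at Adgrb3 and Gpc6.

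Under APH, repeated positions were more frequent in ESC than in NPC. The 72, 57 and 88 ESC APH junctions of Adgrb3, Lpp and Gpc6 fell on 55, 45 and 72 positions, and the 285, 275 and 500 NPC APH junctions on 276, 264 and 479. Under DMSO the order was not the same at each window, with 16, 11 and 15 positions for 16, 11 and 19 ESC junctions and 82, 110 and 182 for 89, 120 and 191 NPC junctions. Counting every position and strand only 1 time, the fitted APH difference in ESC was 1.33 ± 0.50 at Adgrb3, 1.66 ± 0.55 at Lpp and 1.86 ± 0.51 at Gpc6 (log2, SE), so Adgrb3 had the lowest of the 3.

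By single experiment, the 3 windows together held a median of 0.449% of junctions in 20 ESC APH experiments and 0.0823% in 16 ESC DMSO experiments. The NPC medians were 0.424% in 16 APH and 0.172% in 24 DMSO experiments. The sets differ, as ESC DMSO had no usable bait 7 experiment and ESC APH none of line 1 bait 7. NPC APH had none of line 2 bait 12 or line 2 bait 15. Ranges were wide at this depth, from 0% to 0.733% in ESC APH and from 0% to 0.583% in NPC DMSO. Of the 4 DMSO experiments of NPC line 2 bait 15, A held 0.583% and D 0.331%, while B held 0.256% and C 0.138%. The line 1 APH experiments that share molecules with A and D held 0.531% and 0.297%.

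For comparison, 2 bins of 500 kb outside the bait chromosomes passed the edgeR test for a gain under APH in both cell types, chr5:132000001-132500000 and chr5:132500001-133000000. Over 880 features, 2.16% were called positive for APH in ESC and 7.84% in NPC; all 3 windows were among the positive features in ESC, and Adgrb3 and Gpc6 but not Lpp in NPC. These calls depend on the processing. With DESeq2, Adgrb3 was not called in ESC. With each position and strand counted only 1 time, Adgrb3 and Lpp were not called in ESC, nor Gpc6 in NPC. As the windows were chosen on this contrast, nothing is read from these calls. The chromosome 5 bins differed by 3.25 ± 0.48 and 3.49 ± 0.49 in ESC and by 1.52 ± 0.38 and 1.28 ± 0.38 in NPC (log2, SE), with the ESC values above those of all 3 windows. That difference was not tested. The median over all features was 0.13 in ESC and -0.05 in NPC.

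The cell types were then compared with both treatments averaged. That contrast did not choose the windows, but it rests on the same pools and APH counts. It is therefore not independent of the choice. NPC minus ESC was 0.89 ± 0.35 at Lpp, 0.85 ± 0.35 at Gpc6 and 0.15 ± 0.35 at Adgrb3 (log2, SE), beside a median of 0.28 over all 880 features. None of the 3 windows passed edgeR's quasi-likelihood test with Benjamini-Hochberg adjustment (adjusted p = 0.0517 at Lpp, 0.0691 at Gpc6 and 0.811 at Adgrb3), while 17.3% of the features were called positive and 2.39% negative. Lpp and Gpc6 lay close to the threshold, and over 18 alternatives the adjusted p ran from 0.0294 to 0.711 at Lpp and from 0.000899 to 0.4003 at Gpc6, with 4 and 5 of the 18 under 0.05. The edgeR values of 0.000899 and 0.00435 at Gpc6 came from fits of single experiments. Those fits take experiments of the same pool as replicates and lack some pools, so their p-values are too small to compare with the rest. Against the total of junctions beyond 5 Mb, in place of the trimmed mean of M values (TMM), the values were lower, with a mean shift of 0.36 over all features, which left 0.53 at Lpp and 0.48 at Gpc6 and turned the sign at Adgrb3 to -0.19. Without the 2 NPC pools of line 2 bait 15 the values were 0.98 (adjusted p = 0.0618) at Lpp, 0.83 (adjusted p = 0.118) at Gpc6 and 0.01 (adjusted p = 0.989) at Adgrb3 by edgeR. NPC pools were also the deeper ones; the part of depth in these differences was not tested.

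**Figure D2:**
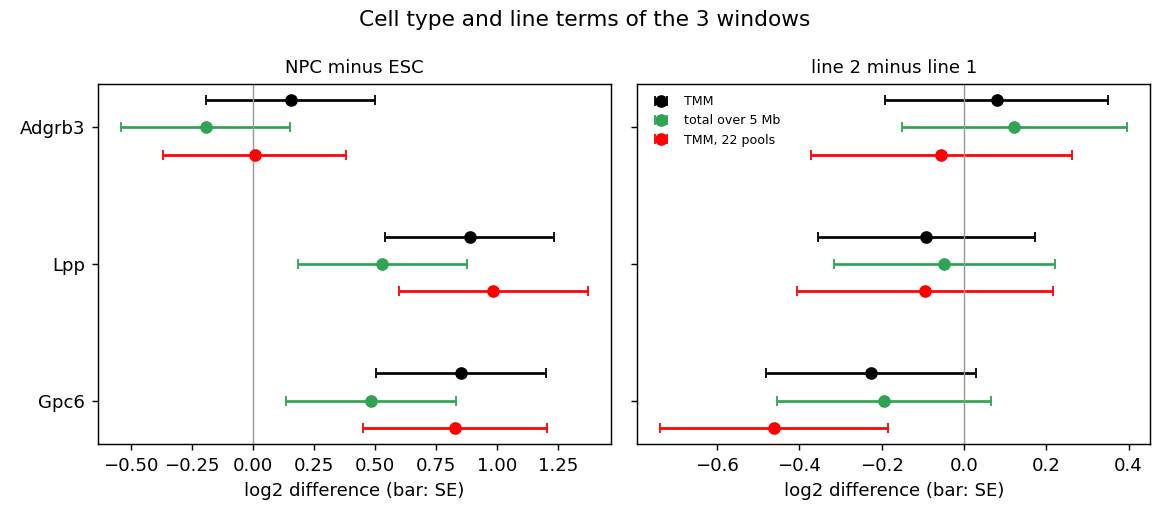
Fitted log2 differences (x axis) between NPC and ESC (left) and between line 2 and line 1 (right) for each window (y axis), with SE bars, for TMM scaling, for scaling to the junctions beyond 5 Mb, and without the 2 NPC pools of line 2 bait 15. Lpp and Gpc6 lie above 0 in the left panel under each scaling, Adgrb3 lies on both sides, and in the right panel no value is further from 0 than -0.46.

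Among baits, Adgrb3 was the window with the widest spread. With the bait on chromosome 12, the ESC APH pools held 0.236% (line 1, 20 junctions at 18 positions) and 0.284% (line 2, 26 junctions at 18 positions), while the other 4 ESC APH pools held 0.0654% to 0.105%. In NPC the bait 12 APH pools again held the highest shares, 0.149% and 0.153%, against 0.0669% to 0.105% with the other baits. Under DMSO the bait 12 pools were not the highest, at 0.00798% to 0.0419%. This pattern within APH was noticed in the values and has no test of its own. Averaged over treatments, bait 12 minus bait 7 was 0.96 and bait 15 minus bait 7 was 0.59 at Adgrb3 (log2), and edgeR's quasi-likelihood F test over the 3 baits gave an adjusted p of 0.298. Without the 2 NPC pools of line 2 bait 15 that adjusted p was 0.247. At Lpp the values were 0.42 and 0.52 (adjusted p = 0.697), and at Gpc6 -0.14 and 0.08 (adjusted p = 0.944). With those 2 pools left out, the same F test gave 0.48 and 0.84 at Lpp (adjusted p = 0.453). Gpc6 then had -0.09 and -0.08 (adjusted p = 0.992). None of the 3 windows was called in the edgeR bait test, in which 8.82% of 465 features off the bait chromosomes were. The median distance between the highest and lowest bait was 0.63 over those features, against 0.52 over the 3 windows.

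No difference between the lines passed the test at these windows. Line 2 minus line 1 was 0.08 ± 0.27 at Adgrb3, -0.09 ± 0.26 at Lpp and -0.23 ± 0.26 at Gpc6 (log2, SE), each with an adjusted p of 0.986 by edgeR. No feature was called: 0% positive and 0% negative of 880 by edgeR, 17 at an unadjusted p under 0.05, and 0 by DESeq2. The line 2 bait 15 pools of NPC repeat molecules of line 1, and without them the values were -0.05 ± 0.32, -0.09 ± 0.31 and -0.46 ± 0.28.

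Within the windows, APH junctions were densest near the centre at Adgrb3 and Gpc6, and no short stretch held most of them. At Adgrb3 the busiest 100 kb step lay 50 kb below the window centre in ESC APH pools and held 20 of 72 junctions. In NPC APH pools it lay 50 kb above the centre with 63 of 285. At Gpc6 the step at the centre was the busiest in both cells, with 21 of 88 and 81 of 500 junctions. Lpp was flatter, with its busiest step 200 kb below the centre in ESC (11 of 57) and 200 kb above it in NPC (40 of 275). Without the 2 NPC pools of line 2 bait 15 the busiest NPC step at Lpp was also 200 kb below the centre (33 of 204), while those of Adgrb3 (52 of 230) and Gpc6 (66 of 406) stayed in place. No 1 kb stretch held more than 6 APH junctions in any window over both cell types, and at Gpc6 the APH junctions of both cell types fell in 375 different stretches of 1 kb.

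Ranked among 4422 bins of 500 kb off the bait chromosomes, the highest Gpc6 bin, chr14:117500001-118000000, was at rank 12 in ESC under APH with 68 junctions and at rank 27 in NPC under APH with 270. The highest Adgrb3 bin was at rank 34 in ESC and 90 in NPC, and the highest Lpp bin at rank 75 in ESC and 85 in NPC. The NPC ranks were 24 at Gpc6, 88 at Adgrb3 and 99 at Lpp without the 2 NPC pools of line 2 bait 15. These ranks rest on the values that chose the windows and are a description.

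The rise stood out from its surroundings more at Adgrb3 and Gpc6 than at Lpp. Per Mb, the APH density in the Adgrb3 window was 5.76 times that of the 1 Mb on each side in ESC and 5.59 times in NPC. The Gpc6 ratios were 5.33 and 5.38, and the Lpp ratios 2.05 and 2.05. Under DMSO the ratios were 2.46 and 2.58 at Adgrb3, 0.792 and 2.93 at Gpc6 and 0.524 and 1.48 at Lpp. With the 2 NPC pools of line 2 bait 15 left out, the NPC ratios under DMSO were 1.43 at Adgrb3, 1.77 at Gpc6 and 1.42 at Lpp, and those under APH 5.90, 5.70 and 2.03. These ratios carry no test.

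**Figure D3:**
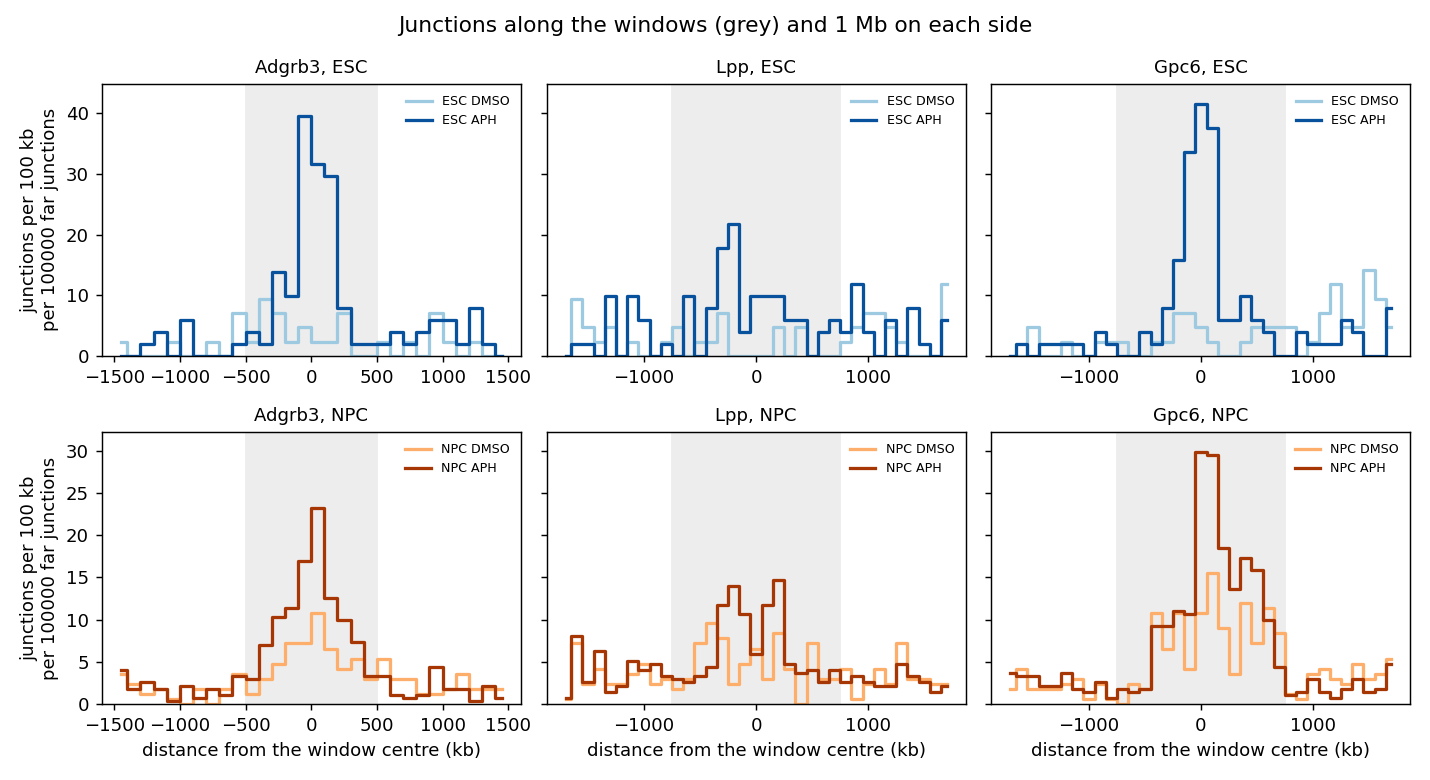
Junctions per 100 kb per 100000 junctions beyond 5 Mb (y axis) against the distance from the window centre (x axis, kb), for ESC (top) and NPC (bottom), APH dark and DMSO pale, with the window in grey. The APH mounds at Adgrb3 and Gpc6 stand at the centre of the window, where the busiest Gpc6 step holds 21 ESC and 81 NPC junctions, and Lpp has a lower, broader rise.

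At Gpc6 the NPC junctions lay further towards the chromosome end than those of ESC. Over the 6 line and bait units the median junction lay 864 ± 57.0 kb (SD) from the window start in NPC and 738 ± 67.1 kb in ESC. NPC was further along in 6 of 6 units by 126 ± 62.9 kb (exact sign-flip permutation test, two-sided, p = 0.03125, the smallest that 6 units allow). Within APH pools the difference was 84.5 ± 26.5 kb, again in 6 of 6 units. Of 5 equal parts of the window counted from the start, part 4 held 175 of 691 NPC junctions (127 of 487 without the 2 NPC pools of line 2 bait 15) and 12 of 107 ESC junctions. Without the unit of line 2 bait 15, Gpc6 gave 131 kb in 5 of 5 units (exact p = 0.0625, the smallest that 5 units allow). At Adgrb3 the difference was 49.4 ± 92.9 kb (exact p = 0.28125) and at Lpp 8.65 ± 325 kb (exact p = 0.96875), so neither exceeded the spread between units. The position, strand and microhomology tests form a family of 12, and adjusted over it the p of 0.03125 becomes 0.075, here and for each test below that reached it.

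With cell types and treatments summed, the plus-strand share was lower on the start side of each window than on the end side. The adjusted p missed the threshold. On the start side most junctions were on the minus strand. Over the 6 units the plus-strand share at Adgrb3 was 24.6% ± 12.4 on the start side and 56.0% ± 9.82 on the end side (SD, n = 6). Gpc6 had 39.9% ± 9.07 and 68.6% ± 6.66, and Lpp 39.9% ± 7.72 and 58.9% ± 8.58. In all 3 windows the start side was lower in 6 of 6 units. Start minus end was -31.4 ± 17.0 points at Adgrb3, -28.8 ± 14.8 at Gpc6 and -19.0 ± 8.26 at Lpp (exact sign-flip permutation test, two-sided, p = 0.03125 each, adjusted p = 0.075 each). With the 2 NPC pools of line 2 bait 15 left out and the few ESC junctions of that unit kept, Gpc6 gave -25.7 points (exact p = 0.03125, lower in 6 of 6 units). Adgrb3 then gave -17.9 points (exact p = 0.34375) and Lpp -8.92 points (exact p = 0.375), each lower in 5 of 6 units. With the whole unit left out, the start side was lower in 5 of 5 units at each window. Pooled by treatment, the NPC shares at Lpp were 39.6% (start) and 69.5% (end) under APH but 50.7% and 52.9% under DMSO. Under DMSO, NPC had 28.2% and 40% at Adgrb3 and 45.1% and 73.3% at Gpc6. ESC at Lpp had 28.6% and 36.4% under APH, and 57.1% and 25% on 11 DMSO junctions. The split by treatment was not tested.

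By pooled counts, the plus-strand share was higher on the end side in both cell types at Adgrb3 and Gpc6, and the difference between cell types was not tested. In ESC, Adgrb3 had 13 plus-strand and 33 minus-strand junctions on the start side and 28 and 14 on the end side. In NPC the counts were 43 and 128, then 99 and 104, or 28 and 91, then 69 and 72 without the 2 NPC pools of line 2 bait 15. Gpc6 had 22 and 29, then 35 and 21 in ESC, and 86 and 148, then 327 and 130 in NPC (61 and 102, then 227 and 97 without those pools). At Lpp the NPC counts were 92 and 121, then 118 and 64 (69 and 91, then 80 and 46 without them), whereas ESC had 14 and 28, then 9 and 17, a similar share on both sides at this depth. At Gpc6 in NPC the plus-strand share was 32.3% in part 2 of the 5 equal parts (95% interval 24.3% to 41.2%) and 84% in part 4 (77.7% to 89.1%). Without those pools the shares were 36.3% (26.4% to 47.0%) and 80.3% (72.3% to 86.8%). ESC did not have that order at Gpc6, with 55.6% of 18 junctions in part 2 and 50% of 12 in part 4. Part 5 had 81.8% of 11. The 95% intervals of the ESC sides overlapped at Gpc6, 29.3% to 57.8% (start) and 48.5% to 75.1% (end).

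Pooled over all junctions, start minus end was -26.0 points at Adgrb3, -19.5 at Lpp and -32.7 at Gpc6. Other regions of 1000 kb off the bait chromosomes with at least 400 junctions (70 regions) had a median of -4.25 points and a 5th to 95th percentile range of -32.7 to 20.5. The 211 such regions of 1500 kb had a median of 2.26 and a range of -22.4 to 17.3. Adgrb3 and Lpp were inside these ranges and Gpc6 outside its own. With a minimum of 100 junctions, the same percentile range was -19.4 to 19.1 over 1852 regions of 1000 kb. Over 1400 regions of 1500 kb it was -16.7 to 15.6. Adgrb3, Lpp and Gpc6 were all outside those ranges. The place of Adgrb3 and Lpp among other regions therefore depends on the minimum chosen.

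**Figure D4:**
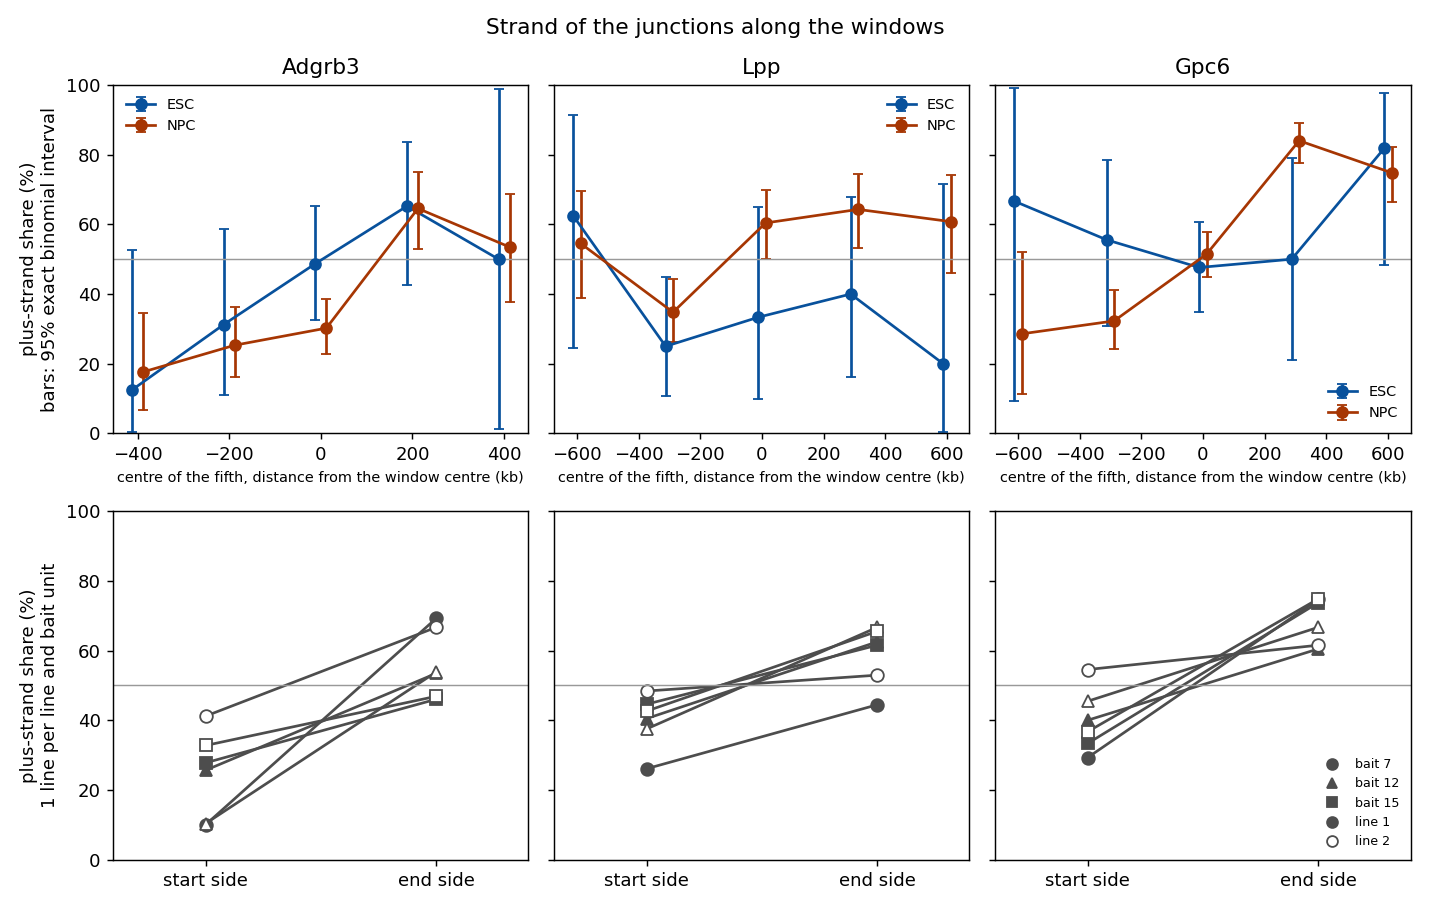
Plus-strand share of junctions (y axis, percent) in 5 equal parts of each window (top, x axis in kb from the window centre, ESC and NPC with 95% exact binomial intervals) and on the start and end side per line and bait unit (bottom, 1 connected pair per unit). All 6 units are higher on the end side in each window, and at Gpc6 the NPC share is 32.3% in part 2 and 84% in part 4. The ESC share at Gpc6 is 55.6% in part 2 and 50% in part 4.

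Over the whole window, Gpc6 carried an excess of plus-strand junctions, 58.4% ± 2.20 against 49.2% ± 1.87 among other junctions off the bait chromosome (SD over 6 units), higher in 6 of 6 units by 9.22 ± 2.61 points (exact sign-flip permutation p = 0.03125, adjusted p = 0.075). Without the 2 NPC pools of line 2 bait 15 the difference was 8.98 points (exact p = 0.03125). Adgrb3 was lower than the rest in 5 of 6 units, by 9.25 ± 9.93 points (exact p = 0.09375). At Lpp the difference of -0.77 ± 6.47 points was within the spread (exact p = 0.9375). Leaving out the 2 NPC pools of line 2 bait 15 gave -7.83 points at Adgrb3 (exact sign-flip p = 0.15625). Lpp then had -4.95 points (exact sign-flip p = 0.4375).

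In none of the 3 windows did the share of junctions with microhomology of 2 bases or more pass the test against the rest of the genome. Such microhomology of 2 bases or more was present in 60.8% ± 3.59 of Adgrb3 junctions, 66.0% ± 7.03 at Lpp and 59.2% ± 8.73 at Gpc6, against 63.3% ± 1.36 of other junctions off the bait chromosome (SD over 6 units). The differences were -2.52 ± 2.97, 2.67 ± 6.73 and -4.13 ± 8.66 points (exact sign-flip permutation p = 0.125, 0.46875 and 0.3125). Leaving out the 2 NPC pools of line 2 bait 15 gave -2.80, 0.75 and -5.90 points (exact sign-flip p = 0.125, 0.78125 and 0.15625). The lowest p over other overlap minimums was 0.0625, at Adgrb3 for 3 bases or more (-4.53 ± 3.55 points, exact test, lower in 5 of 6 units) and at Lpp for 1 base or more (4.74 ± 4.59 points, higher in 5 of 6 units). By cell type, the ESC values were 43.2% of 88 junctions at Adgrb3, 60.3% of 68 at Lpp and 40.2% of 107 at Gpc6, beside 55.0% elsewhere. NPC values were 65.2%, 66.3% and 65.1%, beside 65.2% elsewhere. Without the 2 NPC pools of line 2 bait 15 the NPC values were 66.5%, 67.5% and 64.5%, beside 65.0%. Junctions with inserted bases made up 38.6% of ESC junctions at Adgrb3, 17.6% at Lpp and 30.8% at Gpc6, beside 28.8% elsewhere. Blunt junctions made up 6.82%, 10.3% and 8.41%, beside 6.85%. These splits by cell type were not tested, and they count repeated positions. With each position and strand counted only 1 time, the unit differences in microhomology of 2 bases or more were -1.49, 2.89 and -2.55 points (exact sign-flip p = 0.375, 0.34375 and 0.375).

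The 500 kb bins most like each window were found by the Pearson correlation of log2 CPM over the 24 pools, as a description; the pools share depth, scaling and treatment. Of 462 bins, the closest to Adgrb3 were chr5:132000001-132500000 (r = 0.701), chr10:32000001-32500000 (r = 0.666) and chr6:77500001-78000000 (r = 0.637). Gpc6 was closest to chr6:77500001-78000000 (r = 0.777), chr5:19500001-20000000 (r = 0.744) and chr5:132000001-132500000 (r = 0.689), so 2 of its 3 bins were also among those of Adgrb3. Lpp was closest to chr16:11000001-11500000 (r = 0.747), chr16:6000001-6500000 (r = 0.719) and chr18:25000001-25500000 (r = 0.717), none of them shared with the other windows. Among themselves the windows correlated at 0.571 (Adgrb3 with Lpp), 0.528 (Adgrb3 with Gpc6) and 0.567 (Lpp with Gpc6), and the median over all bins was 0.0744 with Adgrb3, 0.214 with Lpp and 0.152 with Gpc6.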

How the data were processed

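Per the labels' protocols, HTGTS used linear amplification-mediated PCR. The submitters' processing notes name Bowtie2 and mm9; neither its version nor a junction caller is stated in the sources used here. Each row of the 24 deposited tables is a junction read, so values here are raw counts of rows, per the file headers, that the authors did not normalize. Rows that repeated a read name within a table (18609) were dropped, and 2018794 junctions were left. The reads carry no molecular identifiers. In 19 tables the experiment letters matched the labels (76 experiments); 5 were used as pools only. In NPC line 2 bait 15 APH, 33961 rows did not hold 0 in the mapqual filter column, unlike the other tables, and were kept.

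The windows, lists and tests were chosen with earlier results of these data known. The 3 windows were named by that choice. Junctions more than 5 Mb from the bait break were counted in 500 kb bins, the bins of each window summed to 1 feature, and filtered with filterByExpr (minimum count 5), which left 880 features. Tests used the quasi-likelihood test of edgeR 4.0.16 with TMM in R 4.3.3, with Benjamini-Hochberg adjustment at 0.05 and blocks for the other factors; DESeq2 1.42.0 was an alternative. Single experiments took the TMM factor of their pool and the same features. Strand, microhomology and position were compared over the 6 combinations of line and bait with an exact sign-flip permutation test, with intervals from scipy 1.17.1. Labels do not say which experiments came from separate cultures, so p-values reflect spread among pools that may be technical. The fits and the sign-flip test were tested on simulated data. Gene names were matched to RefSeq (GRCm38.p6) for 3 of 3 windows.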

Additional observations from a re-analysis of the deposited data

Results flagged for a closer look

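Of 43 groups of 4 or 6 values checked for a value far from the others, 3 were marked, and chance marks about 1 in 20. The Adgrb3 share of NPC line 2 bait 15 DMSO was 0.101%, far above the next NPC DMSO pool at 0.0358%; this pool shares molecules with NPC line 1 bait 15 APH, as given in the report, and the part of that sharing in its value was not tested. At Lpp, the line 1 bait 7 unit had a plus-strand share 13.53 points below its background (-13.53), while the next lowest unit was at -0.68. In ESC line 2 bait 7 under APH, experiment B held 0.6195% of its junctions in the 3 windows (8 at Adgrb3, 4 at Lpp and 2 at Gpc6 of 2260), and the next highest experiment held 0.0883%.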

How the results depend on the processing

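For the cell types, Adgrb3 changed sign with the total beyond 5 Mb (-0.1928) or off the bait chromosome (-0.2032) as library size. Lpp passed the threshold with DESeq2 (0.9493) and with no filter on low counts (1.1231), and ran from 0.6715 to 1.1385 with each line and bait unit left out. Gpc6 passed it with DESeq2 (0.8658), no filter (1.0808), each position once (0.8058) and single experiments (0.9922). The last takes experiments of the same pool as replicates. The features called, 173, became 389 with no filter, 70 without line 1 and 83 without line 2. For baits, 41 became 63 with DESeq2, 13 without line 1, 85 with single experiments and 22 to 49 with units left out. For lines, Adgrb3 was -0.0549 without the 2 NPC pools of line 2 bait 15, Gpc6 0.0357 with single experiments, and with units left out Lpp ran from -0.2053 to 0.0976 and Gpc6 from -0.4433 to 0.0317.

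With the experiment letter as a replicate block, single experiments gave 1.0233 at Gpc6 for cell type and 0.0056 for line, and called 182 features for cell type (214 without the block) and 55 for bait (85 without). Over 32 pairs of APH and DMSO experiments with the same letter, r ran from -0.102 to 0.137 and 1 was above 0.1. Counting error in single experiments lowers such r, so these values cannot tell whether a letter marks a shared culture.

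Strand balance at Lpp was 0.0563 with each position once and -1.6897 to 1.7843 with units left out, and at Gpc6 8.6297 to 10.037. For start minus end of the plus-strand share, leaving out the 2 NPC pools of line 2 bait 15 gave -17.9361 at Adgrb3 and -8.9243 at Lpp; units left out gave -34.8567 to -25.8338, -21.8772 to -16.9547 and, at Gpc6, -33.1162 to -25.4352. Microhomology changed sign at Adgrb3 with APH pools only (0.4564) and at Gpc6 with an overlap of 1 or more (0.5079). Position at Lpp was -43.6646 with windows 250 kb wider, -7.5163 by the mean and -47.4429 without the 2 NPC pools, and -47.4429 to 119.59 with units left out; at Gpc6 it was 131.108 without those pools and 106.39 to 139.766 with units left out. With 5 units the smallest p is 0.0625, so no test over them can pass. The alternative without the 2 NPC pools was chosen after seeing the data.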
